A study of Mus musculus with 6 samples.

Results

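Terminal erythroid maturation ends with the removal of mitochondria and other organelles, and 10 genes of that process were examined here in sorted erythroblasts with 1 or no intact P38α allele. They were the mitochondrial receptor genes Bnip3l and Bnip3, the kinase gene Pink1, and the autophagy genes Ulk1, Becn1, Atg5, Atg7, Map1lc3b, Gabarapl2 and Sqstm1. Members were the gene array oligos named for these genes, 17 of 55681 non-control oligos, and 15 of the 17 passed the filter on dim signal, so that all 10 genes had at least 1 tested oligo among 14139 tested genes.

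Each array held RNA of CD71highTer119+ erythroblasts sorted from bone marrow on day 4 after a single dose of phenylhydrazine (PHZ, 100 mg/kg), which destroys red cells and causes hemolytic anemia. The P38α+/− controls were Mx1-Cre/P38α fl/+ littermates and the P38α−/− mice were Mx1-Cre/P38α fl/fl, all C57Bl/6 and 6 to 8 weeks old at the first of 3 PolyIC injections of 300 µg that preceded 6 weeks of rest. There were 3 arrays per genotype, and every mouse carried Cre, received PolyIC and PHZ, and had lost at least 1 P38α allele by design, so no animal with both alleles intact was compared. Mx1-Cre is induced by interferon and is not restricted to erythroid cells. In bulk RNA of this kind, fewer cells of a type and less RNA per cell cannot be told apart.

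Between 28.9% and 53.0% of oligos were well above background on an array, and P38α−/− replicate 3 was hybridised alone on a second slide. The 2 tested oligos of Mapk14, the gene of P38α, did not show a loss of its RNA: the log2 difference between P38α−/− and P38α+/− was 0.54 ± 0.19 (SE, n = 3 per genotype, limma adjusted p = 0.187) for the brighter one, higher in all 3 arrays labelled P38α−/−, and 0.01 for the other. Where these oligos lie relative to the floxed exons was not determined, and the groups are therefore the arrays as labelled. By genomic PCR and immunoblot, the study reports an excised locus and no remaining P38α protein in erythroblasts of P38α−/− mice after PolyIC. Of 18 late erythroid marker genes 17 were tested, and their summed log2 level spanned 9.86 to 10.48 in P38α+/− and 9.87 to 10.52 in P38α−/− arrays, and overlapped, with 31.8% to 42.1% of the sum from the globin gene Hba-a1. For neutrophil transcripts the genotypes did not overlap, since the summed log2 level of 12 neutrophil genes was 6.80 to 8.20 in P38α+/− and 5.90 to 6.39 in P38α−/− arrays.

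Autophagy wraps cytoplasm in a double membrane and delivers it to the lysosome. The ULK1 kinase and the Beclin 1 lipid kinase complex start the membrane, ATG7 and ATG5 act in the enzyme chain that couples the ubiquitin-like LC3 and GABARAP proteins to it, and SQSTM1 (p62) links ubiquitinated cargo to LC3. In mitophagy the cargo is the mitochondrion, marked either by receptors in its outer membrane, such as BNIP3L (NIX) and BNIP3, or by the PINK1 kinase with the ubiquitin ligase Parkin. BNIP3L is known for its need in the clearance of mitochondria from reticulocytes.

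The measurement for a gene is the binding of labelled RNA to an oligo of 60 bases. For 3 members the oligo that read them is shown, in mm9 coordinates and in the direction of the transcript, since these oligos carry a frame without a stop codon over the whole oligo. The Becn1 oligo spans 943 bases of chr11:101151771-101152713 on the minus strand and so crosses a splice junction, the dimmer of both Atg7 oligos lies at chr6:114657539-114657598 on the plus strand, and the tested Sqstm1 oligo lies at chr11:50015985-50016044 on the minus strand.
Becn1: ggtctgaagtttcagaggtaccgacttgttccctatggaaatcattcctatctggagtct
Atg7: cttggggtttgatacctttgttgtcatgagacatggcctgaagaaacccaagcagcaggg
Sqstm1: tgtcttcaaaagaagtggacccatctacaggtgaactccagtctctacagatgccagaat

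None of the 10 genes differed between genotypes by the test. Genes were read by limma on their brightest oligo, with Benjamini-Hochberg adjustment over all tested oligos. Of the members, 0 of 10 passed an adjusted p of 0.05 with a change of at least 2-fold, against 0.170% of all genes. The lowest adjusted p among them was 0.241. At an unadjusted limma p of 0.05, 0 of 10 members passed on that oligo against 20% of all genes, though the second Bnip3 oligo did. By the methods' t-test at the same unadjusted level 1 of 10 passed (Map1lc3b) against 16.5%. In 8 members the genotypes overlapped. Map1lc3b was higher in all 3 P38α−/− arrays than in any P38α+/− array, as were 7.45% of all genes, and Bnip3 was lower in all 3, as were 19.6% of all genes. The median log2 fold change (P38α−/− minus P38α+/−) was −0.11 over the members and −0.14 over all tested genes, with 5 members above and 5 below the latter. The spread within a genotype was small, with a residual SD of 0.06 to 0.47 on the log2 scale and a median of 0.21, beside a median of 0.28 over all genes. With that spread, the 95% interval of the fold change lay inside a 2-fold change in either direction for 9 of 10 members, Bnip3 being the exception, and for 60.6% of all genes. That count rests on the scaling of the arrays: it was 2 of 10 when the 75th percentile was taken over all oligos and 0 of 10 when arrays were centred on their spike-in spots.

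**Figure D1:**
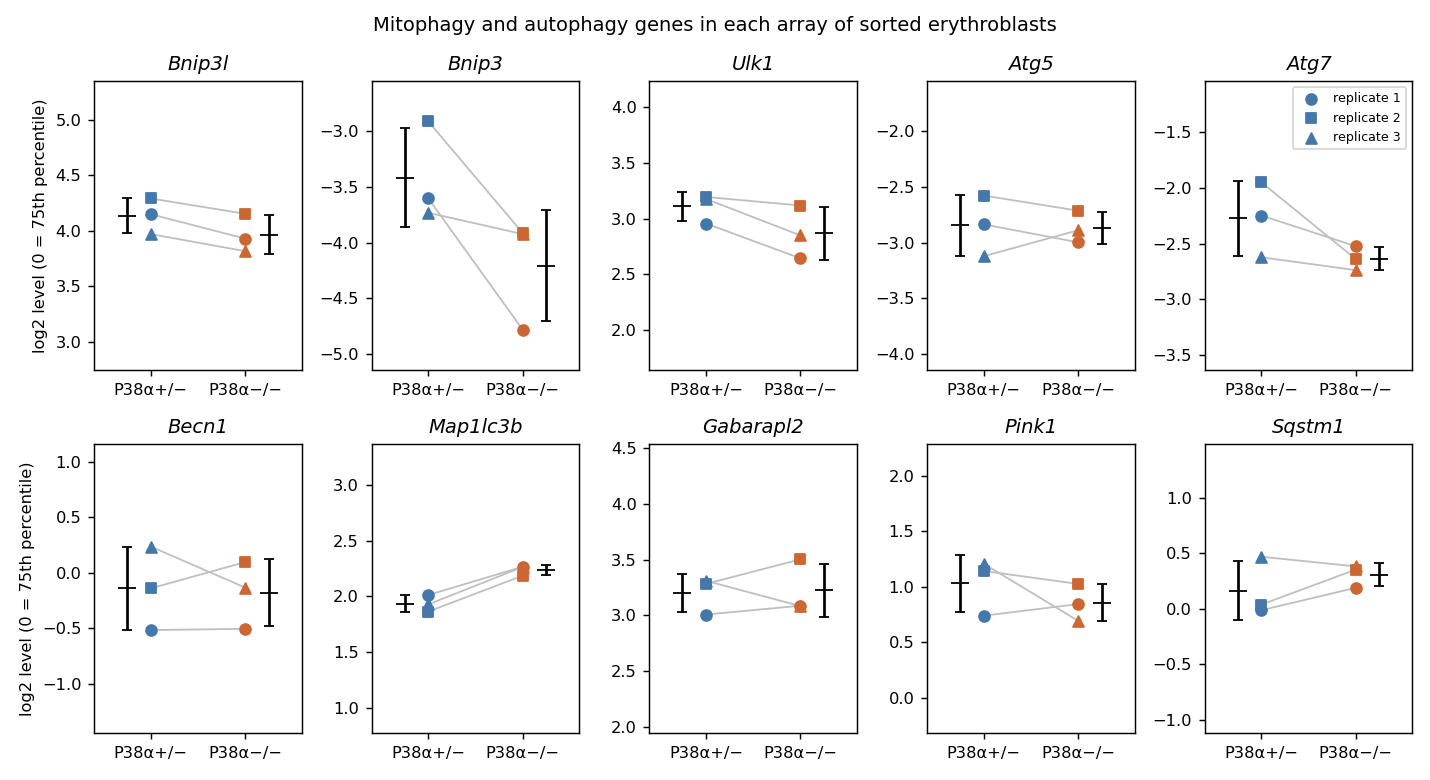
Log2 level of the brightest tested oligo of each of the 10 genes in every array, relative to the array's 75th percentile, for P38α+/− (blue) and P38α−/− (orange), with lines joining arrays of the same replicate number and bars for the mean and SD (n = 3). The axes all span the same log2 range, and the genotypes separate for Bnip3 and Map1lc3b while the other 8 panels overlap.

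Bnip3l was read by 4 oligos on chromosome 14, all well above background in every array, and both genotypes overlapped on each of them. On the brightest oligo (chr14:67606210-67606269) its log2 level, with 0 at the array's 75th percentile, was 4.15, 4.29 and 3.97 in P38α+/− replicates 1, 2 and 3 and 3.93, 4.15 and 3.82 in P38α−/− replicates 1, 2 and 3. Replicate 2 was the highest array in both genotypes, on all 4 oligos. The fold change was −0.17 ± 0.17 (SE, limma adjusted p = 0.610), with a 95% interval that ran from 0.67 to 1.18 as a ratio of P38α−/− to P38α+/−. The other 3 oligos gave log2 fold changes of −0.17, −0.07 and −0.11, so that the 4 oligos differed among themselves by less than their errors. Within same-numbered arrays the brightest oligo was lower in P38α−/− in 3 of 3 pairs, by 0.22, 0.14 and 0.15 on the log2 scale, and the median gene was also lower. Relative to that median the difference was −0.03. With the 75th percentile taken over all oligos the log2 fold change of Bnip3l turned to 0.31, while the median gene moved to 0.34.

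The 5 non-member genes whose values followed Bnip3l most closely over the 6 arrays, after each gene was centred on its mean, were Smg6, Pxmp4, Socs7, Npm1 and Iscu. Their root mean square differences from Bnip3l were 0.03 to 0.04 on the log2 scale, against a median of 0.30 over 11968 genes detected on all arrays. Smg6 encodes a nuclease of nonsense-mediated decay, Npm1 a nucleolar protein and Iscu a scaffold of iron-sulfur cluster assembly. Among the members the closest to Bnip3l was Atg5, with a difference of 0.12, and the farthest was Bnip3, with 0.46, a measure that also grows with the larger spread of Bnip3. Both receptors were highest in replicate 2 of either genotype. All these genes share the same 6 arrays and their scaling.

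Bnip3, the hypoxia-responsive relative of Bnip3l, had the largest log2 difference of the members. Its log2 level on the brightest oligo (chr7:146082760-146082819) was −3.60, −2.91 and −3.73 in P38α+/− and −4.78, −3.91 and −3.92 in P38α−/− replicates 1, 2 and 3. The closest arrays of the genotypes were P38α+/− replicate 3 and P38α−/− replicate 2, and P38α−/− replicate 1 was the lowest of all. The log2 fold change was −0.79 ± 0.33 (SE, limma p = 0.051, adjusted p = 0.241), the interval ran from 0.33 to 1.00 as a ratio, and an exact two-sided permutation test gave p = 0.10, the smallest that 3 against 3 arrays allow. A second Bnip3 oligo, well above background on all 3 P38α+/− and 2 P38α−/− arrays, gave −1.13 ± 0.46 with overlapping genotypes (limma adjusted p = 0.236). The third Bnip3 oligo did not rise well above background on an array of either genotype and was not tested. Both tested oligos were lower in P38α−/− in 3 of 3 same-numbered pairs.

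Within the first slide, with 3 P38α+/− and 2 P38α−/− arrays, the log2 fold change of Bnip3 was −0.93 (limma adjusted p = 0.377 with the slide as a block). This fit equals leaving out P38α−/− replicate 3, the only array on the second slide. The Bnip3 difference kept its direction in all 18 alternatives and ranged from −0.96 to −0.31, but the genotypes stayed apart in 13 of them. They overlapped under scaling to all oligos, quantile normalization, spike-in centring, the authors' table and the mean over oligos. Alternatives that changed only the filter or the fit, or left out an array, could not make separated genotypes overlap. Of those that changed the values themselves, only the other background correction kept the genotypes apart. The Bnip3 difference was smallest under scaling to all oligos. Neutrophil transcripts were lower in P38α−/− arrays as well. Of these, 12 of 12 tested genes had negative log2 fold changes, with a median of −1.50. In 10 of the 12 the genotypes did not overlap, while 19.6% of all genes were lower without overlap. All 12 stayed negative in the 18 alternatives, with a median of −2.05 to −1.02. The summed log2 level of 10 tested monocyte or macrophage genes also did not overlap, at 0.57 to 1.74 in P38α+/− and −0.16 to 0.40 in P38α−/− arrays. Lyz2 made up 30.1% to 48.7% of that sum. Without Lyz2 the genotypes overlapped, at −0.38 to 0.92 in P38α+/− and −1.12 to −0.11 in P38α−/− arrays. Of the 10 genes, 2 were lower without overlap (20%, against 19.6% of all genes). Mrc1, Cd163 and Siglec1 stayed at background throughout. The part of these cells in the Bnip3 values was not tested.

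Pink1 (chr4:137869327-137869386), the kinase that recruits Parkin to damaged mitochondria, had log2 levels of 0.74, 1.14 and 1.21 in P38α+/− and 0.85, 1.03 and 0.69 in P38α−/− arrays. The genotypes overlapped, with P38α−/− values inside or just below the P38α+/− range. The log2 fold change was −0.18 ± 0.19 (limma adjusted p = 0.645), and the same-numbered pairs did not go one way.

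Of the genes that start the autophagosome, Ulk1 (chr5:111213514-111213573) had log2 levels of 2.96, 3.19 and 3.18 in P38α+/− and 2.64, 3.12 and 2.85 in P38α−/− replicates 1, 2 and 3. All 3 same-numbered pairs were lower in P38α−/−, although the genotypes overlapped through P38α−/− replicate 2. The log2 fold change was −0.24 ± 0.18 (limma adjusted p = 0.489), with an interval of 0.63 to 1.15 as a ratio. Becn1 had log2 levels of −0.51, −0.14 and 0.24 in P38α+/− and −0.50, 0.10 and −0.13 in P38α−/− arrays. Its spread between mice of one genotype, with an SD of 0.38 and 0.30 (n = 3 each), was larger than the log2 fold change of −0.04 ± 0.26 (limma adjusted p = 0.947). Replicate 1 was the lowest array in both genotypes.

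In the conjugation chain, Atg5 (chr10:44083997-44084056) had log2 levels of −2.84, −2.58 and −3.12 in P38α+/− and −2.997, −2.71 and −2.89 in P38α−/− arrays. The P38α−/− values lay within the P38α+/− range, and the log2 fold change was −0.02 ± 0.19 (limma adjusted p = 0.964). Atg7, the E1-like enzyme, was read by 2 oligos that disagreed in sign. The brighter (chr6:114809893-114809952) gave log2 levels of −2.25, −1.95 and −2.62 in P38α+/− and −2.52, −2.64 and −2.74 in P38α−/− arrays, lower in 3 of 3 pairs, with a log2 fold change of −0.36 ± 0.21 (limma adjusted p = 0.369). The dimmer, whose sequence is given above, gave 0.13 ± 0.29 (adjusted p = 0.835) with P38α−/− arrays from −4.43 to −3.38 around a narrow P38α+/− range of −4.11 to −3.81. Both oligos overlapped between genotypes, and no direction can be given for Atg7.

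Map1lc3b (chr8:124121771-124121830), the gene of LC3B, had the smallest spread of the members together with a shift upward. Its log2 level was 2.01, 1.86 and 1.93 in P38α+/− and 2.27, 2.19 and 2.26 in P38α−/− replicates 1, 2 and 3. Every P38α−/− array lay above every P38α+/− array, and each same-numbered pair was higher, by 0.25, 0.32 and 0.34. The log2 fold change was 0.30 ± 0.14 (SE, limma p = 0.066, adjusted p = 0.268), the interval was 0.98 to 1.55 as a ratio, and the exact two-sided permutation p was again 0.10. It was positive in all 18 alternatives, between 0.27 and 0.79, with no overlap between genotypes in 17 of them. The exception was centring on the spike-in spots. Overlap could arise only in alternatives that changed the scaling or the background or used the authors' table, so the other alternatives add no support for the separation. Within the first slide it was 0.29 (limma adjusted p = 0.523 with the slide as a block).

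Gabarapl2 (chr8:114476386-114476445), of the same ubiquitin-like family, had log2 levels of 3.01, 3.28 and 3.31 in P38α+/− and 3.09, 3.50 and 3.08 in P38α−/− arrays. The genotypes overlapped, and the log2 fold change was 0.02 ± 0.19 (limma adjusted p = 0.959). Sqstm1, on the oligo shown above, had −0.01, 0.04 and 0.47 in P38α+/− and 0.19, 0.35 and 0.38 in P38α−/− arrays. Its P38α−/− values sat inside the P38α+/− range, and the log2 fold change was 0.14 ± 0.18 (limma adjusted p = 0.703). A second Sqstm1 oligo was well above background on 2 P38α+/− arrays and on no P38α−/− array, and was not tested.

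**Figure D2:**
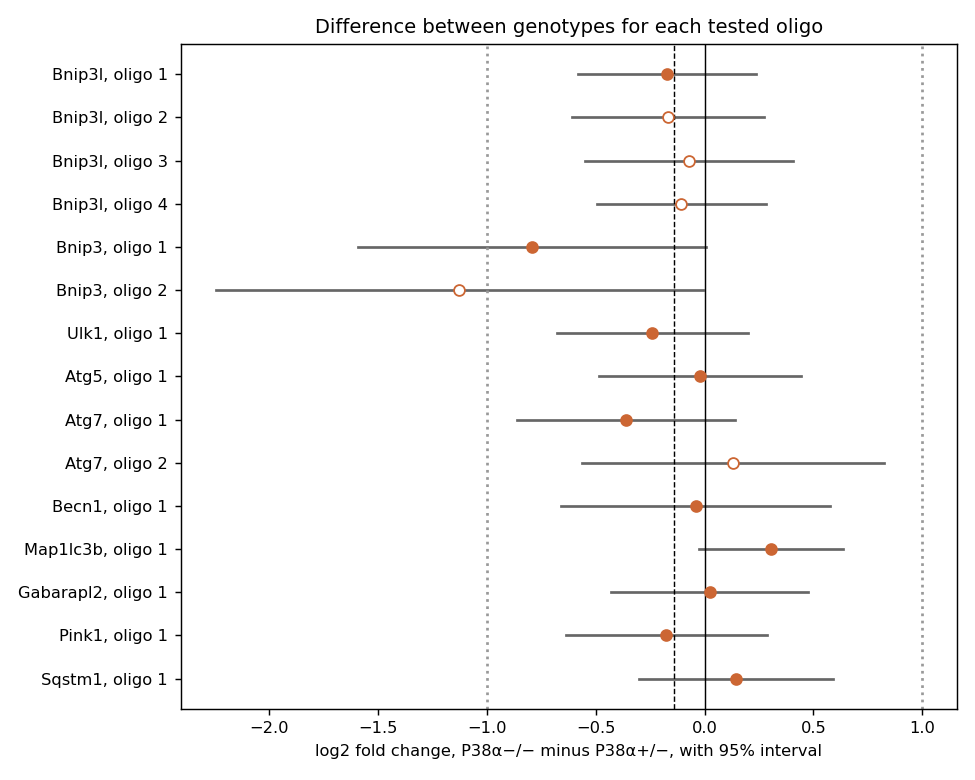
Log2 fold change of P38α−/− over P38α+/− with its 95% interval from limma for the 15 tested oligos (filled, the brightest of a gene; open, its further oligos), with a dashed line at the median of all tested genes and dotted lines at a 2-fold change. Intervals of all but both Bnip3 oligos lie between the dotted lines.

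Because the median gene lay at −0.14, the sign of small differences depends on how arrays are scaled. With the 75th percentile taken over all oligos, the median gene moved to 0.34 and Bnip3l, Ulk1, Atg5, Atg7, Becn1 and Pink1 all turned positive on their brightest oligo, while no member passed the test. Bnip3 stayed lowest and Map1lc3b highest of the 10 under this scaling.

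**Figure D3:**
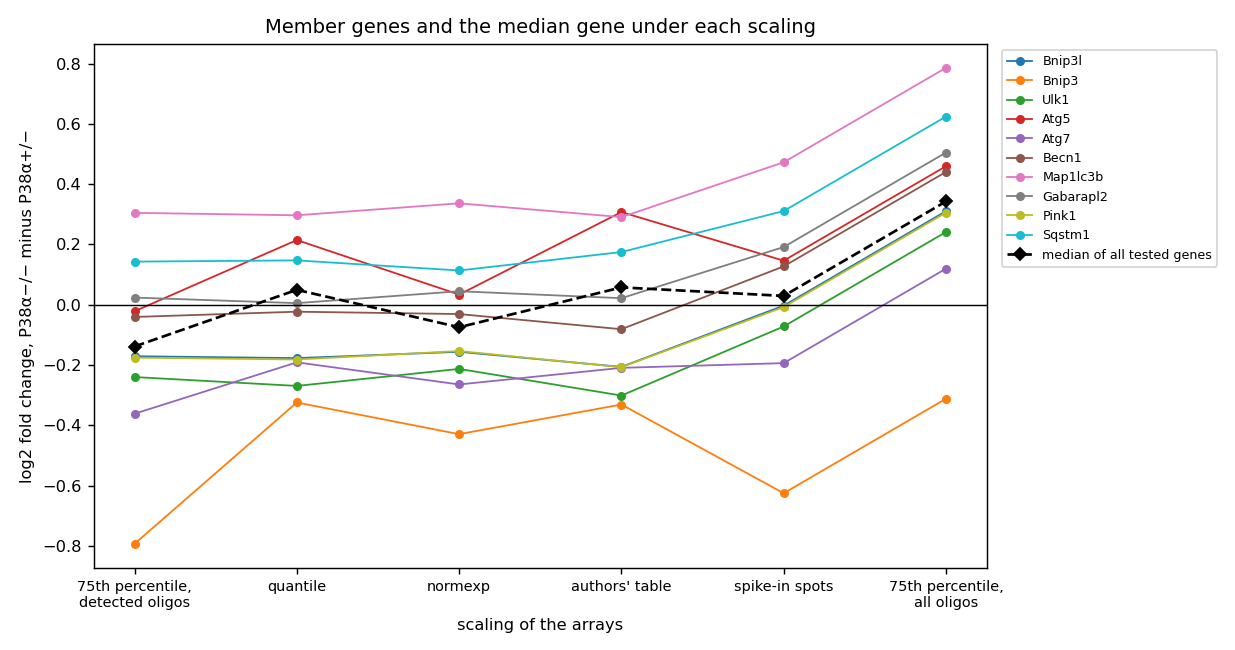
Log2 fold change of P38α−/− over P38α+/− for the brightest oligo of each member (coloured lines) and for the median of all tested genes (black diamonds) under 6 scalings of the arrays. Under spike-in centring and scaling to all oligos every line rises with the median gene. Under quantile normalization and in the authors' table the median gene rises as well, as do Bnip3, Atg5 and Atg7, but Bnip3l, Ulk1, Pink1, Map1lc3b and Gabarapl2 fall. The line of Bnip3 stays below 0 while that of Map1lc3b stays above it under every scaling drawn.

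The promoters of the members with separated genotypes are shown because their differences had opposite signs. RefSeq sequence of GRCm38.p6 gave a promoter for 8 of the 10 members, of which 250 bases before the start are printed 5′ to 3′ on the strand of the gene, at chr7:138909507-138909756 (minus strand) for Bnip3 and chr8:121590188-121590437 (plus strand) for Map1lc3b. Capitals mark CACGTG, an E-box that also holds ACGTG, one form of the core of the site of hypoxia-inducible factors. Other forms of that core were neither searched nor marked, so a sequence without capitals may still hold one.
Bnip3: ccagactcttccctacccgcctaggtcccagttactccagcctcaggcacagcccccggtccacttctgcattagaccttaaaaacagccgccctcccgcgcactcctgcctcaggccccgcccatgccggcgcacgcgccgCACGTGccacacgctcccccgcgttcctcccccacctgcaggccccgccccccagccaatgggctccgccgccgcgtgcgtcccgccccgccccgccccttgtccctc
Map1lc3b: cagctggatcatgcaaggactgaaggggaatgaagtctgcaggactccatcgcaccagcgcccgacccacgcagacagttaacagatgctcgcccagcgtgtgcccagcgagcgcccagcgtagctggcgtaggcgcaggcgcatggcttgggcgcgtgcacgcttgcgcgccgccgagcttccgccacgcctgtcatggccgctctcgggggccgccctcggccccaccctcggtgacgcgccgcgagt

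Searched on both strands of the same 250-base window, CACGTG was present in Bnip3, Atg5 and Atg7 and in 6.02% of 32851 promoters. ACGTG was present in these 3 and in Gabarapl2, and in 16.6% of all promoters. AGATAA, one form of the GATA factor motif, was in none of the 8 member promoters and in 9.99% of all, and other forms were not searched.

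The wider pathway held differences of both signs, and none passed the test. Of 96 genes in 9 groups, members included, 88 were tested and 0 passed. At an unadjusted limma p of 0.05, 10 of the 88 passed (11.4%, against 20% of all genes), 3 higher and 7 lower, and by the methods' t-test 12 did (13.6%, against 16.5%). The genotypes did not overlap for 20 of them, 10 higher and 10 lower in P38α−/−, each 11.4% of the 88, against 7.45% of all genes higher and 19.6% lower. The median log2 fold change was −0.04. By group, without the members, the median was 0.18 over 3 further genes of the ATG8 family (the ubiquitin-like proteins), 0.15 over 13 regulators, 0.05 over 8 cargo receptors, 0.03 over 7 lipid transfer and WIPI genes, −0.03 over 16 fusion and lysosome genes, −0.04 over 13 mitophagy receptor and PINK1-Parkin genes, −0.06 over 4 ULK complex genes, −0.09 over 8 class III lipid kinase genes and −0.20 over 6 conjugation enzymes. Differences between groups were not tested.

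The largest positive differences without overlap of genotypes were in regulators. Ddit4, an inhibitor of the nutrient-sensing kinase complex mTORC1, had log2 levels of −2.78, −2.15 and −1.34 in P38α+/− and −0.55, −0.24 and −0.25 in P38α−/− arrays. The P38α+/− arrays were widely spread and all below the P38α−/− arrays, and the log2 fold change was 1.75 ± 0.36 (limma adjusted p = 0.103). Without P38α+/− replicate 3, the nearest array, the log2 fold change was 2.12 and Ddit4 passed the test (limma adjusted p = 0.0497). With any other array left out it did not pass, at log2 fold changes of 1.40 to 1.85 (limma adjusted p = 0.154 to 0.289). Rptor, a subunit of mTORC1, had −2.55, −2.54 and −1.75 in P38α+/− and −1.50, −1.48 and −1.22 in P38α−/− arrays, a log2 fold change of 0.88 ± 0.26 (limma adjusted p = 0.151). Trp53inp1, a p53 target with a role in autophagy, followed at 0.56 ± 0.25, then Tfe3, a transcription factor of lysosomal genes, at 0.30 ± 0.14 and Bcl2l13, a further mitophagy receptor, at 0.29 ± 0.16. None of the last 3 passed the test, their limma adjusted p being 0.267, 0.291 and 0.351.

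Of the genes that were lower without overlap, Calcoco2, the cargo receptor NDP52, has only a bound. Its log2 level was −3.72, −5.82 and −6.13 in P38α+/− arrays, while all 3 P38α−/− arrays were not well above background. Calcoco2 thus passed the filter through P38α+/− alone. With the P38α−/− arrays set to the dimmest signal well above background, it was about 2.01-fold lower on the reported scale. That floor is the lowest over all oligos of an array and is not specific to Calcoco2, so the bound is approximate. That bound is drawn up by P38α+/− replicate 1, its highest array. The fit without this floor gave a limma adjusted p of 0.167. Over the alternatives the Calcoco2 log2 fold change ran from −2.41 to −0.44, so its size depends on the processing. Lamp2, a glycoprotein of the lysosomal membrane, had log2 levels of −2.18, −1.65 and −2.11 in P38α+/− and −3.03, −2.72 and −3.35 in P38α−/− arrays. No array of one genotype reached the other, and the log2 fold change was −1.05 ± 0.24 (limma adjusted p = 0.107), with both Lamp2 oligos negative. Trp53inp2, an autophagy factor that binds LC3, had −0.94 ± 0.26, Atg16l2, a paralog of the conjugation scaffold Atg16l1, had −0.89 ± 0.32, and Wdr45b, a WIPI protein, had −0.70 ± 0.21. None passed the test, the limma adjusted p being 0.143, 0.20 and 0.158. Atg16l2 was well above background on 3 P38α+/− and 2 P38α−/− arrays. Over the alternatives the Atg16l2 value ran from −1.11 to 0.09, and its direction is therefore not settled, whereas the other 4 stayed negative. The lower neutrophil and macrophage transcripts stand beside these 5 genes as they do beside Bnip3, and their part was not tested.

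**Figure D4:**
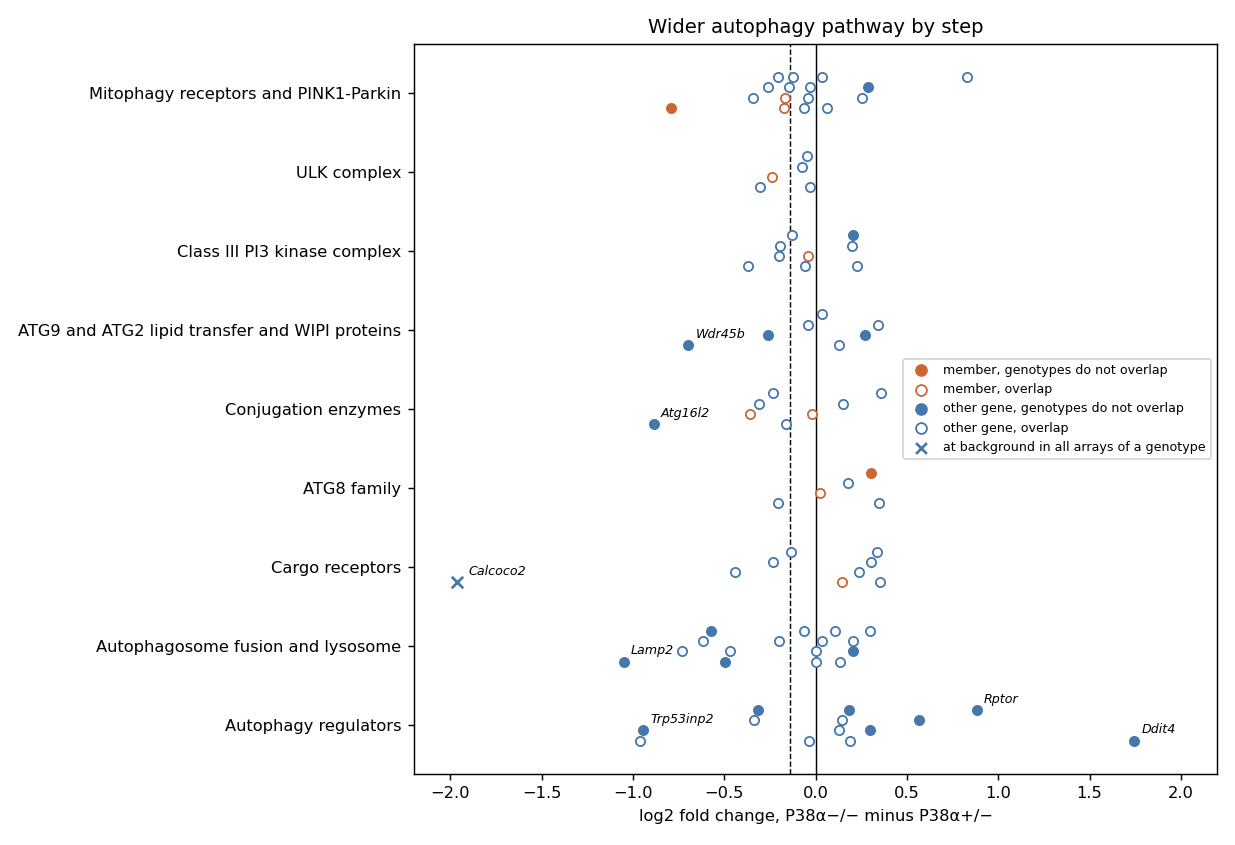
Log2 fold change of P38α−/− over P38α+/− for 88 tested genes of the autophagy pathway by step, with members in orange, other genes in blue, filled points where the genotypes do not overlap, a cross for Calcoco2, whose P38α−/− arrays were at background so that its position has no exact value, and a dashed line at the median of all tested genes. Most points lie near 0 at every step, with Ddit4 at 1.75 the farthest to the right and Lamp2 at −1.05 the lowest of those measured in both genotypes.

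Further genes tied to the members in erythroid cells did not pass the test. Foxo3, a transcription factor of autophagy genes in maturing erythroblasts, had a log2 fold change of 0.15 ± 0.17 (limma adjusted p = 0.668) with 2 oligos of opposite sign. Bcl2l1, which encodes the survival factor Bcl-xL, had 0.19 ± 0.15 (adjusted p = 0.522). Slc25a37, the mitochondrial iron importer mitoferrin 1, had −0.19 ± 0.16 (adjusted p = 0.546). All 3 overlapped between genotypes. Over the alternatives Slc25a37 ran from −0.53 to 0.29 and Foxo3 from −0.04 to 0.63, so neither has a settled sign. Tfeb, the relative of Tfe3, was well above background on 4 arrays and was not tested.

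The transcripts of mitochondrial proteins, the cargo of mitophagy, were measured in all arrays. All 18 listed genes were tested, 0 passed, and their log2 fold changes ran from −0.32 (Hspa9) to 0.28 (Opa1) with a median of 0.07. Their 95% intervals lay inside a 2-fold change in all 18, against 60.6% of all genes, on the scale of the detected oligos. Of the 18, Cs and Opa1 were higher and Hspa9 was lower in P38α−/− without overlap, and 15 overlapped. These are 11.1% higher and 5.56% lower, against 7.45% and 19.6% of all genes. Slc25a37 made up 66.3% to 75.4% of their summed level, and the summed log2 level of the other 17 was 5.28 to 5.38 in P38α+/− and 5.37 to 5.48 in P38α−/− arrays. RNA levels do not measure the number of mitochondria or the flux through autophagy.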

How the data were processed

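Bone marrow erythroblast RNA (10 ng per array) was amplified and Cy3-labelled for 1-colour Agilent mouse arrays, 3 per genotype. Per the file headers, Agilent Feature Extraction 10.7.3.1 gave the deposited processed signal intensity, which is background-subtracted, with oligo positions in mm9, and flags for outliers and for signal well above background. The deposited series table holds intensities normalized by the authors, which were log2-transformed here and used only as an alternative. Its column for P38α−/− replicate 2 correlated with that array's intensity at Spearman 0.897, against 1.00 for the other arrays.

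Flagged spots were dropped and spots of an oligo averaged. Log2 intensity was centred on each array's 75th percentile over 15527 oligos well above background on all 6 arrays. An oligo was tested if well above background on all 3 arrays of a genotype (18764 oligos). A gene was read by its brightest tested oligo. Symbols were updated through RefSeq accessions or synonyms for 31484 of 55681 oligos, and the file's name was kept for the others. limma 3.58.1 in R 4.3.3 compared the genotypes across all tested oligos, checked on simulated data. A call needed a Benjamini-Hochberg adjusted p of at most 0.05 and a 2-fold change. Differences are P38α−/− minus P38α+/−, errors are SE of limma, and intervals are 95%. The number of arrays limits the precision.

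Same-numbered arrays deviated together from their genotype means (r = 0.54, 0.31 and 0.42, highest other pair 0.18), so the numbers were taken as pairs and a fit with the replicate block was run as an alternative. The members, the gene lists and the tests were chosen with earlier results of these data known. Named from the wider lists were, as none passed, the 5 largest rises and 5 largest falls among genes whose genotypes did not overlap, with Slc25a37, Foxo3, Bcl2l1 and Tfeb always named, and the 5 genes closest to Bnip3l. The 7 erythroid and non-erythroid marker lists and the mitochondrial list are given by counts. Alternatives covered the scaling, the background, the filter, the slide and replicate blocks, array weights, the methods' t-test, oligo averaging and leaving out each array. The slide block and leaving out P38α−/− replicate 3 give the same fit and are not separate checks. The study's methods describe separate mice, while the labels give replicate numbers.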

Additional observations from a re-analysis of the deposited data

How the results depend on the processing

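No member passed the test under any of the 18 alternatives. Pairing same-numbered arrays with a replicate block left 0 members and 0 pathway genes called and 2 members without overlap, at a median of −0.11, and changed none of these calls. The block leaves the values as they are, so it could not alter the overlap or this median. The number of members without overlap, 2 in the reported setting, was 1 under scaling to all oligos, quantile normalization, the authors' table and the mean over oligos, and 0 under spike-in centring. The median of the members, −0.11, became 0.38 and 0.062 under scaling to all oligos and spike-in centring, and members with an interval inside a 2-fold change, 9 as reported, became 2 and 0. That last count was added after seeing the data. Relative to the median gene, the median of the members was 0.03 as reported and −0.15 under quantile normalization. Over the alternatives it ran from −0.20 in the authors' table to 0.18 without the filter on dim signal. Pathway genes called, 0 as reported, were 4 under scaling to all oligos (Fkbp8, Calcoco2, Rptor and Ddit4) and 6 with array weights (these with Lamp2 and Trp53inp2). Fkbp8 was named after its values were seen. The dimmer Bnip3 oligo passed with array weights (−1.70, adjusted p = 0.036). Leaving out each array gave 2 to 4 members without overlap, a count that this step can only raise, and a median of −0.22 to −0.04. It also gave 8 to 9 members with intervals inside a 2-fold change and 0 to 1 pathway genes called, Ddit4 without P38α+/− replicate 3.

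Several small log2 differences changed sign. Scaling to all oligos gave 0.31, 0.31, 0.41 and 0.37 for the 4 oligos of Bnip3l, 0.24 for Ulk1, 0.46 for Atg5, 0.12 for the brighter Atg7 oligo, 0.44 for Becn1 and 0.31 for Pink1, since the median gene moved to 0.34. Spike-in centring gave 0.097 and 0.060 for the 2 dimmest Bnip3l oligos, 0.15 for Atg5 and 0.13 for Becn1. Atg5 was 0.21, 0.034 and 0.31 under quantile normalization, normexp and the authors' table, and Gabarapl2 was −0.10 with array weights. With the slide as a block, the third-brightest Bnip3l oligo was 0.034 and the dimmer Atg7 oligo −0.090. Leaving out each array gave −0.21 to 0.047 and −0.090 to 0.43 for these, −0.16 to 0.11 for Atg5, −0.23 to 0.15 for Becn1 and −0.12 to 0.095 for Gabarapl2. Causes other than the scaling were not tested. Of 254 member values under alternatives, 28 changed sign. Signal over background limits the dim genes Bnip3, Atg5 and Atg7 most.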

Other observations

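Other cell type markers moved unequally between the genotypes. T or NK cell genes had a median log2 fold change of −0.32 over 3 tested genes and monocyte or macrophage genes −1.05 over 10. Of 4 tested B cell genes, Ms4a1 and Ebf1 were at background in all 3 P38α−/− arrays and have no exact fold change, and Cd79b and Cd22 had −2.42 and −0.80 with overlapping genotypes. Megakaryocyte or platelet genes had a median of 0.28 over 4, with Pf4 negative. Of the early erythroid genes, 9 were tested with a median of −0.05. Kit, the stem cell factor receptor, was lower without overlap, at −1.62 (limma adjusted p = 0.160, and 0.048 with the replicate block, which made it a call). That is 11.1% of the list, against 19.6% of all genes. Cd34 was −1.87 with overlapping genotypes (limma adjusted p = 0.254, and 0.048 with the replicate block, also a call). Cd34 was well above background on 3 P38α+/− arrays and 1 P38α−/− array, and Kit on 3 and 2. Both thus passed the filter through P38α+/− alone, and the Cd34 fold change has no exact value. Myb was −1.08 with overlap. The other tested early genes lay between −0.07 (Lmo2) and 0.18 (Lyl1). The 17 tested late erythroid genes had a median of 0.00, with 3 higher and 1 (Ermap) lower without overlap, against 7.45% and 19.6% of all genes. Among the 3, Trim58, a ubiquitin ligase of enucleating erythroblasts, was higher in all 3 P38α−/− arrays, with a log2 fold change of 0.51 ± 0.14 (limma adjusted p = 0.148).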
